A study of Zea mays with 11 samples.

Results

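The maize genes nkd1 (GRMZM2G129261, also IDDveg9) and nkd2 (GRMZM5G884137, also IDD9) were followed across kernel and endosperm development. They were chosen by identifier, and both were present among the 34145 genes of the deposited table. The series profiled poly(A) RNA of the field-grown, self-pollinated inbred line Mo17. Days are counted after pollination (DAP). Whole kernels were taken on days 3 and 5, endosperm dissected from kernels on 8 days between 7 and 25, and the control tissue, ear leaf, on day 13. All 11 libraries carry the same genotype with no treatment, and each stage had 1 library, so the spread between plants or preparations of a stage was not measured. Levels are FPKM (fragments per kilobase of transcript, scaled to the mapped fragments of the library), a scale per length on which different genes can be compared.

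The NAKED ENDOSPERM proteins are zinc-finger transcription factors of the INDETERMINATE domain (IDD) family. In maize, loss of both genes replaces the single-layered aleurone, the outer cell layer of the endosperm, with several layers of incompletely differentiated cells. The genes are duplicates of each other, and both have also been linked to the storage regulators of the inner, starchy endosperm. The authors' annotation gives the same Arabidopsis match, IDD5, for both. How far the authors' mapping separated reads of these related copies is not given in the sources used here, so the level of each alone is less certain than their sum.

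Both genes were low in whole kernels, high in endosperm between 7 and 20 DAP and low again at 25 DAP. The nkd1 transcript stood at 5.04 FPKM in the 3 DAP kernel and 1.82 in the 5 DAP kernel. In endosperm nkd1 stood at 51.73 FPKM on day 7, 49.6 on day 9, 82.96 on day 10, 102.01 on day 11, 80.74 on day 13, 108.15 on day 15, 37.88 on day 20 and 9.28 on day 25. It was thus highest on day 15, with 11 DAP next, and on day 25 it lay below every other endosperm library. The nkd2 transcript stood at 0.41 FPKM in the 3 DAP kernel and 0.71 in the 5 DAP kernel. In endosperm nkd2 stood at 15.91 FPKM on day 7, 9.08 on day 9, 35.07 on day 10, 35.47 on day 11, 23.29 on day 13, 32.05 on day 15, 19.84 on day 20 and 4.03 on day 25. Its 10, 11 and 15 DAP values lay close together above the rest, and 9 DAP was a low point between higher neighbours. The order of the 10 and 11 DAP values cannot be read as a difference without replicates. The summed level of the pair was 67.64 FPKM on day 7, 137.48 on day 11, 140.2 on day 15 and 13.31 on day 25. In a bulk tissue, fewer expressing cells and less RNA per cell cannot be told apart.

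**Figure D1:**
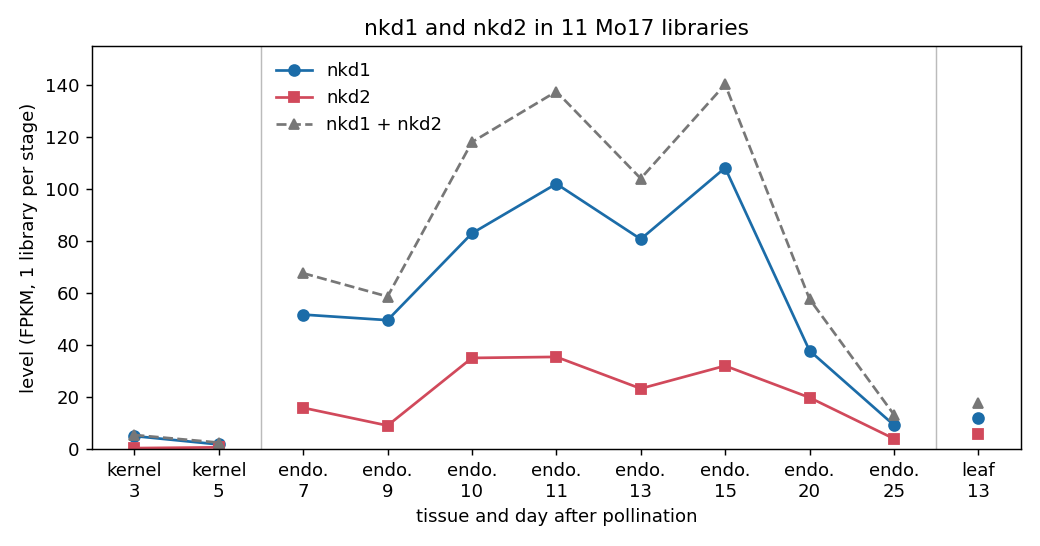
Level in FPKM (y axis) of nkd1 (blue), nkd2 (red) and their sum (grey) in each of the 11 libraries (x axis, tissue and day after pollination, 1 library each, no error bars). The endosperm values are highest from 10 to 15 DAP, with a highest nkd1 value of 108.15 FPKM and a highest nkd2 value of 35.47 FPKM. Within that span both genes are lower on day 13 than on days 11 and 15. Values lie above the kernel values at every endosperm stage.

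The day of highest nkd2 level depended on scaling. As deposited it was 11 DAP. With upper quartile scaling nkd2 stood at 34.94 on day 11 and 36.32 on day 15, and with the 100 highest genes left out of the scaling at 33.32 and 34.83, so its highest value moved to 15 DAP in both cases. The highest nkd1 value stayed at 15 DAP under both. Of the 15149 genes that averaged 1 FPKM or more over the endosperm libraries, 8.48% were highest on day 15 and 10.7% on day 11 among those 8 libraries. In rank within the library, a measure free of scaling, nkd1 was at percentile 97.0 of all listed genes on day 7, 98.97 on day 15 and 87.67 on day 25. The rank of nkd2 was percentile 89.47 on day 7, 95.6 on day 15 and 78.73 on day 25. Both genes therefore lost places among all genes late in development, not FPKM alone.

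A change over the 8 endosperm stages was called for both genes in a fit that allows a curve. With day and its square tested together (limma's F-test on log2(FPKM + 1), Benjamini-Hochberg adjustment over all tested genes), the adjusted p was 0.00072 for nkd1 and 0.012 for nkd2. A straight trend can also pass this joint test, named the curved test here. The squared term was not tested on its own. The squared term was negative for both, -0.024 for nkd1 and -0.0232 for nkd2, the sign of a profile that bends downward. The same test called 54.4% of the tested genes, and 20.5% were called with a negative term, so the call itself is common. The size of the hump is a second description. On the (FPKM + 1) scale the highest nkd1 value was 2.07-fold above 7 DAP and 10.6-fold above 25 DAP, and the highest nkd2 value 2.16-fold and 7.25-fold above them. A highest endosperm value at least 2-fold above 7 DAP and at least 4-fold above 25 DAP, limits chosen with these values known, was found for 2.43% of the 15149 genes.

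The 25 DAP library carried part of these calls. Without it the curved call of nkd2 ended (adjusted p = 0.31), while that of nkd1 held (0.037). Without both 20 and 25 DAP neither was called (adjusted p = 0.18 for nkd1 and 0.45 for nkd2). The nkd1 slope was -0.129 ± 0.045 per day on the log2 scale (SE, 8 libraries, limma adjusted p = 0.039, where 37.4% of tested genes fell), and without 25 DAP it was -0.02 (adjusted p = 0.76). That call also ended without 10, 11 or 20 DAP (adjusted p = 0.07, 0.064 and 0.064) and under quantile (0.13) or upper quartile scaling (0.11). For nkd2 the slope was -0.08 ± 0.049 and was not called (adjusted p = 0.21). Libraries of different days are not replicates, and these p-values take the departures from the fitted curve as the error.

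The steps between neighbouring stages show when the levels changed. These are differences between single libraries, with no test, read against the share of genes that moved as far. In the kernel, nkd1 stood at 1.82 FPKM on day 5, against 5.04 on day 3, a log2 ratio of -1.1 on the (FPKM + 1) scale, and 2.35% of genes were at least 2-fold lower. The log2 ratio of nkd2 for the same step was 0.28, so the duplicates differed in direction there, at levels under 1 FPKM for nkd2. Between the 7 DAP endosperm and the 5 DAP kernel the log2 ratio was 4.22 for nkd1 and 3.31 for nkd2, an 18.7-fold and a 9.89-fold higher value. Of all genes, 11.0% were at least 2-fold higher in that step, and 99.8% had a lower ratio than nkd1. The step changes the tissue as well as the day, so stage and tissue cannot be told apart in it.

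Within endosperm, nkd1 changed by less than 2-fold at each step up to 15 DAP, and nkd2 at each except that into 10 DAP. At 10 DAP nkd2 was 3.58-fold higher than at 9 DAP on the (FPKM + 1) scale, a step in which 9.24% of genes were at least 2-fold higher, and nkd1 was 1.66-fold higher. At 9 DAP nkd2 stood at 9.08 FPKM, against 15.91 at 7 DAP (log2 ratio -0.75), and nkd1 was nearly level (log2 ratio -0.06). In that step 10.8% of all genes were at least 2-fold lower and 1.04% at least 2-fold higher, so the 9 DAP library lay low for many genes. Whether that library is the reason for the low nkd2 value was not tested.

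Between 15 and 20 DAP the drop was larger for nkd1 than for nkd2, as deposited and under the 3 other scalings. This compares single libraries, with no test. A scaling factor per library moves both genes nearly alike, so such scalings cannot test that order. Quantile normalization is not such a factor, and its log2 ratios were -0.98 for nkd1 and -0.26 for nkd2. At 20 DAP nkd1 stood at 37.88 FPKM, against 108.15 at 15 DAP, a log2 ratio of -1.49, where 9.54% of genes were at least 2-fold lower. The nkd2 ratio of the same step was -0.67, under 2-fold. At 25 DAP both were at least 2-fold below 20 DAP, with log2 ratios of -1.92 for nkd1 and -2.05 for nkd2, where 10.2% of genes were. The late levels were lower under every scaling tried. The log2 ratio of 25 over 15 DAP was -3.41 for nkd1 as deposited and between -3.28 and -2.97 under the other scalings, which were upper quartile, without the 100 highest genes, and quantile. For nkd2 it was -2.72 as deposited and between -2.62 and -2.28 under the same 3 scalings. The 15 to 20 DAP drop of nkd1 was under 2-fold only after quantile normalization (log2 ratio -0.98).

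The nkd1 transcript exceeded that of nkd2 in all 11 libraries. In endosperm the FPKM ratio of nkd1 to nkd2 was 3.251 on day 7, 5.463 on day 9, 2.366 on day 10, 2.876 on day 11, 3.467 on day 13, 3.374 on day 15, 1.909 on day 20 and 2.303 on day 25. The ratio was therefore widest on day 9, where nkd2 was low, and narrowest on day 20, where nkd1 lay further below its 15 DAP value than nkd2. On the log2 (FPKM + 1) scale the ratio averaged 1.511 ± 0.459 (SD over 8 stages, range 0.9 to 2.328). It was above 0 in 8 of 8 stages (exact two-sided sign-flip permutation test, p = 0.00781, the smallest p that 8 stages allow, adjusted over 3 tests 0.0234). Because both genes are read in the same library, no scaling factor enters this ratio except through the pseudocount. The stages are not replicates of each other. A higher transcript level and a read assignment that favours nkd1 in every library cannot be told apart by this test. By share, nkd1 gave between 65.63% and 84.53% of the summed FPKM in endosperm.

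Whether the balance shifted with day could not be settled with 8 stages. Pearson's r of the log2 ratio with day was -0.654 (exact permutation p = 0.0807, adjusted 0.121) and Spearman's rho -0.524 (exact permutation p = 0.197, adjusted 0.197). Without the 20 and 25 DAP libraries, the 2 days farthest from the median, r was -0.066 (exact permutation p = 0.906, 6 libraries), so the negative value rested on those stages. In whole kernels the FPKM ratio was 12.29 on day 3 and 2.563 on day 5, with nkd2 under 1 FPKM in both, where rounding weighs most. In leaf the ratio was 2.073, inside the endosperm range.

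**Figure D2:**
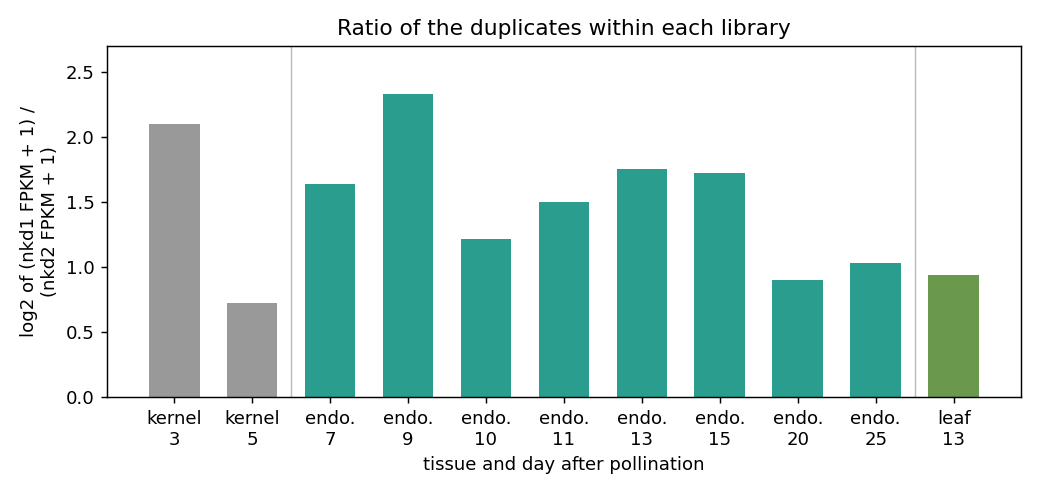
Bars give the log2 ratio of (nkd1 FPKM + 1) to (nkd2 FPKM + 1) in each library (x axis, tissue and day after pollination, 1 library each, no error bars; grey kernel, teal endosperm, green leaf). All 11 bars are above 0, the endosperm ones between 0.9 and 2.328.

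The genes were expressed in leaf as well, below most endosperm stages. In 13 DAP endosperm nkd1 stood at 80.74 FPKM, against 11.88 FPKM in 13 DAP leaf, a log2 ratio of 2.67 on the (FPKM + 1) scale (6.35-fold). For nkd2 the values were 23.29 FPKM in endosperm and 5.73 FPKM in leaf, a log2 ratio of 1.85 (3.61-fold). At least 4-fold higher levels in 13 DAP endosperm than in leaf were found for 6.62% of the 18994 genes with at least 1 FPKM in either library. The nkd1 gene was past that limit and nkd2 just under it. The nkd2 ratio reached 2.0 with a pseudocount of 0.1 and 2.28 after upper quartile scaling, so its side of the limit depends on these choices. Leaf nkd1 was 11.0% and leaf nkd2 16.2% of the highest endosperm value of the gene. Each leaf value lay above both kernel values of the gene, as deposited and under the 3 other scalings. The order of late endosperm and leaf depended on scaling. As deposited, nkd1 stood at 9.28 FPKM in 25 DAP endosperm and 11.88 in leaf, and nkd2 at 4.03 in 25 DAP endosperm and 5.73 in leaf. With upper quartile scaling nkd1 stood at 11.71 in 25 DAP endosperm and 9.892 in leaf, and nkd2 at 5.084 in 25 DAP endosperm and 4.771 in leaf. The other 2 scalings also put 25 DAP endosperm above leaf for both genes. So did the rank within the library, at percentile 87.67 in 25 DAP endosperm and 85.14 in leaf for nkd1, and 78.73 in 25 DAP endosperm and 74.37 in leaf for nkd2.

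Within the IDD family, these duplicates and another IDD5 match formed most of the endosperm signal. The family was taken as the 21 genes whose symbol or Arabidopsis description names an IDD protein. Of the 19 genes besides nkd1 and nkd2, 14 were under 1 FPKM in every endosperm library. That IDD5 match, GRMZM2G021587, to which the gene tables used here give no maize symbol, stood at 0.1 FPKM in the 3 DAP kernel and 0.52 in the 5 DAP kernel. In endosperm it stood at 27.86 FPKM on day 7, 14.54 on day 9, 44.52 on day 10, 52.56 on day 11, 58.03 on day 13, 68.41 on day 15, 59.68 on day 20 and 24.82 on day 25. It shared with nkd1 the low kernel level, the first strong value on day 7 and the highest value on day 15.

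The gene GRMZM2G021587 differed from the duplicates in its late and leaf levels. Its FPKM was below that of nkd1 up to 15 DAP and above it at 20 and 25 DAP, and it was above nkd2 in every endosperm library. Its highest endosperm value was 2.69-fold above 25 DAP, compared with the 10.6-fold of nkd1 and the 7.25-fold of nkd2. In leaf it was at 0.02 FPKM, where the duplicates stood at 11.88 and 5.73. A linear change was not called for it (slope 0.02 ± 0.043, limma adjusted p = 0.73). Its curved call (adjusted p = 0.042) ended without any 1 library from 10 DAP onward (adjusted p from 0.063 to 0.12). The remaining IDD5 match, GRMZM2G179677, was at most 0.02 FPKM in endosperm and 2.72 FPKM in leaf.

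Of the 5 other family members that could be tested, 0 rose and 2 fell by the linear test, and 4 passed the curved test. Of all tested genes 10.3% rose, 37.4% fell and 54.4% passed the curved test, so the 2 that fell are about the share among all genes. The median slope was 0.02 per day over these 5 and -0.034 over all tested genes. Without adjustment 0 of the 5 rose at p under 0.05 in the same limma fit. The members that fell were the IDD4 match GRMZM2G042666, at 22.83 FPKM on day 7 and 0.08 on day 25 (adjusted p = 0.0027), and the Magpie match GRMZM2G022213, at 2.24 FPKM on day 7 and 0.27 on day 25 (adjusted p = 0.017). The call of GRMZM2G022213 ended after quantile normalization (0.38) and without 25 DAP (0.08). The IDD2 match GRMZM2G090595 stood at 13.66 FPKM in the 3 DAP kernel and 13.72 in the 5 DAP kernel. In endosperm it was at 0.6 FPKM on day 7, 23.21 on day 13 and 23.94 on day 20. It passed the curved test (adjusted p = 0.0012), with no linear call (0.1). That curved call ended over the 10 seed libraries (adjusted p = 0.62). The Magpie match GRMZM2G058197 stayed between 1.15 and 5.45 FPKM in endosperm. A higher value in a whole kernel than in any endosperm library was found for 14 of the 19 other genes, and for 49.2% of the 33559 genes detected in seed. Neither nkd1 nor nkd2 had one. The founding member id1 (GRMZM2G011357), a regulator of flowering in maize, was at most 0.1 FPKM in endosperm. Together nkd1 and nkd2 made up 9.28% of the summed family FPKM in the 3 DAP kernel, 72.8% in 9 DAP endosperm, 58.2% on day 15 and 26.6% on day 25, and 35.9% in leaf.

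**Figure D3:**
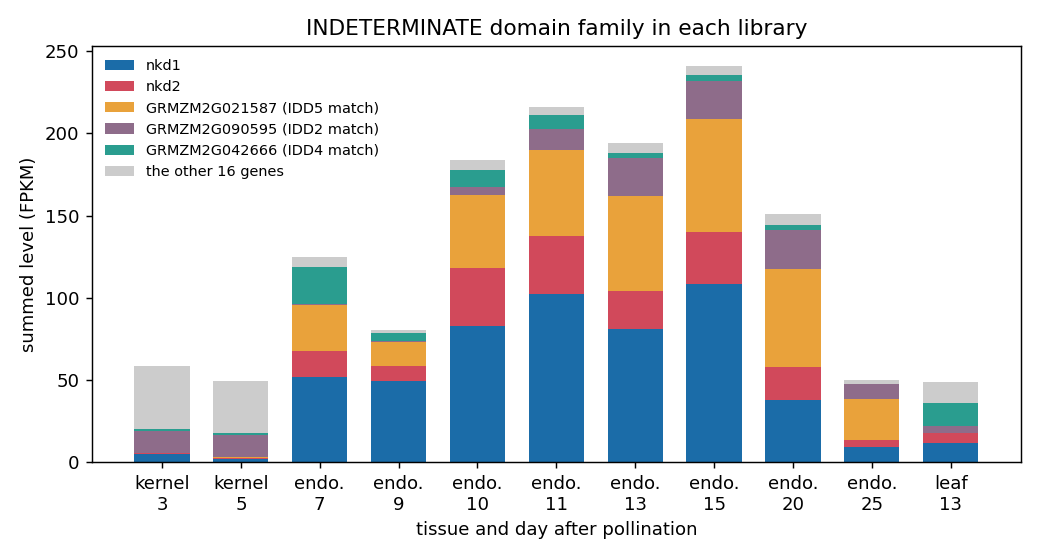
Stacked bars give the summed FPKM of 21 genes of the INDETERMINATE domain family in each library (x axis, tissue and day after pollination, 1 library each). The nkd1 (blue) and nkd2 (red) parts fill most of the 7 to 15 DAP bars, and the IDD5 match GRMZM2G021587 (orange) is the largest part at 20 and 25 DAP.

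Across all 11 libraries the profiles of the duplicates were close to each other. Pearson's r of their log2(FPKM + 1) values was 0.958. Of 10888 other genes with at least 10 FPKM in 1 or more libraries, nkd1 ranked first by r for nkd2, and nkd2 ranked second for nkd1. The median r of all ranked genes was -0.188 to nkd1 and -0.197 to nkd2. The points share the large kernel-to-endosperm step. Within the 8 endosperm libraries alone r was 0.91, and nkd2 then ranked 151 for nkd1 and nkd1 ranked 124 for nkd2, so their high rank rests in part on the kernel and leaf libraries. By Spearman's rho over the 11 libraries (0.936) the ranks were 6 and 5. The IDD5 match GRMZM2G021587 ranked 121 for nkd1 (r = 0.842) and 43 for nkd2 (r = 0.864).

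The list of genes with the profile most like nkd1, by r over the 11 libraries, began with GRMZM2G164475, a match to Arabidopsis TXR1 (r = 0.96), at 24.42 FPKM on day 11 and 8.99 on day 25. Ranked below nkd2 were the unnamed GRMZM2G473463 (r = 0.948), the anthranilate synthase match GRMZM2G138382 (r = 0.935), iaglu (GRMZM2G024131, r = 0.926), the Pumilio match GRMZM2G046776 (r = 0.925) and the unnamed GRMZM2G104501 (r = 0.925). Anthranilate synthase makes the first committed intermediate of tryptophan synthesis, and iaglu encodes a glucosyltransferase of the auxin indole-3-acetic acid. The anthranilate synthase match stood at 10.68 FPKM on day 7, 41.74 on day 11 and 6.43 on day 25. The iaglu transcript stood at 17.32 FPKM on day 7, 45.76 on day 11 and 1.0 on day 25, and was listed at 0 in leaf.

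Of the 8 genes most like each duplicate, 4 were on both lists. For nkd2 the gene ranked second was sdh1 (GRMZM2G175423), which encodes a sorbitol dehydrogenase (r = 0.95). It stood at 124.66 FPKM on day 7, 1124.28 on day 15 and 79.22 on day 25. The phosphofructokinase match GRMZM2G031613 (r = 0.913) was also on the nkd2 list. With r taken over the endosperm libraries alone, 0 of the 8 genes most like nkd1 and 1 of the 8 most like nkd2 remained, so these lists describe the 11 libraries and not the endosperm time course.

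Set beside 6 other endosperm transcription factors, nkd1 and nkd2 were earlier in onset than o2, pbf1 and nrp1 and not earlier than fl3, dof36 and mads47. Both first reached 10% of their highest seed level on day 7 and 50% on day 10. Of the 15149 genes, 3.04% first reached 10% on day 7 and 2.28% first reached 50% on day 10, while 94.3% were already at 10% in the 3 DAP kernel. The PLATZ factor gene fl3, the Dof factor gene dof36 and both duplicates shared the 7 DAP onset at 10%, and the MADS-box gene mads47 was at 10% in the 3 DAP kernel. Of these, dof36 and mads47 reached 50% on day 7 and fl3 on day 9, before the duplicates. The highest seed value of mads47 was 2.51 FPKM, so its percentages are of a low level. The prolamin-box factor gene pbf1 reached 10% at 9 DAP (0.244% of genes). The gene o2, for the bZIP factor that activates zein genes, and the NAC-type gene nrp1 reached it at 10 DAP (0.746% of genes). At 7 DAP the duplicates stood at 47.8% (nkd1) and 44.9% (nkd2) of their highest level, dof36 at 53.2%, fl3 at 36.4%, o2 at 0.236%, nrp1 at 3.33% and pbf1 at 4.1%, and mads47 was at its highest. At 25 DAP nkd1 stood at 8.58% and nkd2 at 11.4%, fl3 at 8.75%, mads47 at 27.5%, dof36 at 48.6%, pbf1 at 78.4% and o2 at 88.3%, and nrp1 was at its highest. These are orders of single libraries, with no test. An onset on day 7 coincides with the change from whole kernel to dissected endosperm, so stage and tissue cannot be told apart in it.

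**Figure D4:**
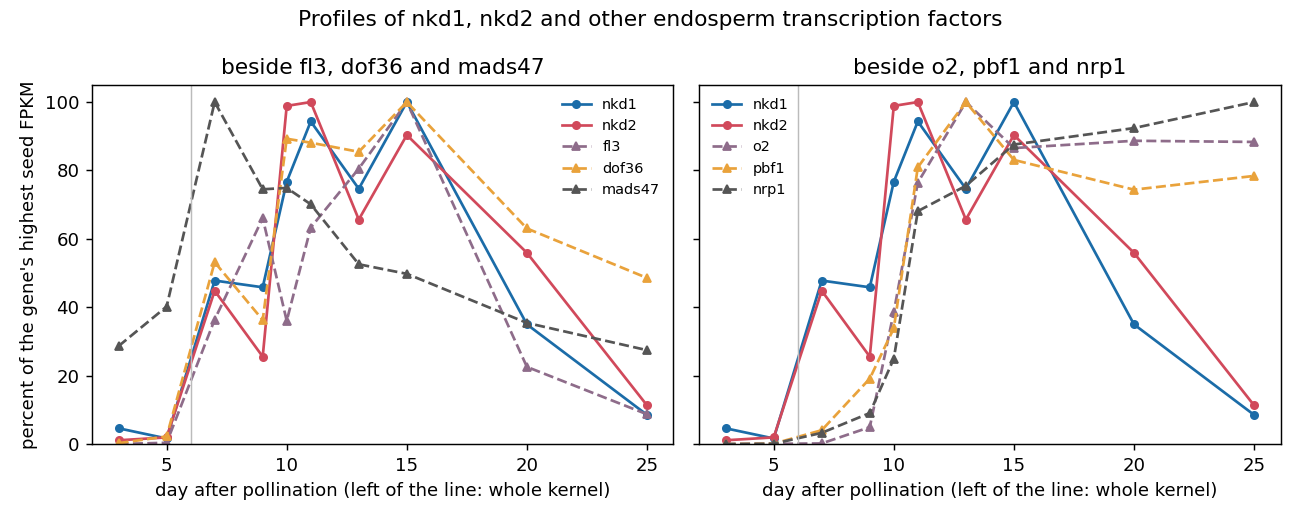
Each line gives a gene's FPKM as a percent of its highest value among the 10 seed libraries (y axis) by day after pollination (x axis, 1 library a day, whole kernel left of the vertical line and endosperm right of it). The nkd1 and nkd2 lines reach 47.8% and 44.9% by 7 DAP and 8.58% and 11.4% on day 25, while o2, pbf1 and nrp1 (right panel) are under 5% on day 7 and above 75% on day 25.

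By the tests, 1 of the 6 matched factors of that list rose (nrp1, slope 0.221 ± 0.067, limma adjusted p = 0.024, where 10.3% of tested genes rose) and 1 fell (mads47, slope -0.056 ± 0.013, adjusted p = 0.0067, where 37.4% of tested genes fell). Under quantile and under upper quartile scaling 3 of the 6 rose. Both calls depended on settings: that of nrp1 ended without 7 DAP (0.072), without 20 DAP (0.057) and without the filter on mean FPKM (0.08), and that of mads47 after quantile normalization (0.41). The curved test was passed by 5 of 6, dof36 being the exception (adjusted p = 0.13), and by 54.4% of all tested genes. The median slope was 0.073 per day, against -0.034 over all tested genes. The symbols nac128, nac130, o11 and bzip22 had no match in the gene table used here, and the gene listed as mrp1 is described as an ABC transporter and was left out.

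Of 6 symbols of aleurone cell fate regulators 4 were matched, and of those 3 fell and 0 rose by the linear test (0 rose at an unadjusted p under 0.05 in the same limma fit). Of all tested genes 37.4% fell and 10.3% rose. The number that fell was 1 of 4 after quantile normalization and 2 of 4 with upper quartile scaling. Their median slope was -0.097, against -0.034 over all tested genes. The receptor kinase gene cr4, which acts in aleurone formation, fell, with 4.94 FPKM on day 7 and 0.43 on day 25 (adjusted p = 0.0025). The gene vp1, for the B3 factor VIVIPAROUS1 of seed maturation and aleurone pigment, fell too, with 3.47 FPKM on day 7, 4.77 on day 10 and 0.28 on day 25 (adjusted p = 0.0088), a call that ended after quantile normalization (0.055). The endosomal sorting gene sal1, whose loss gives extra aleurone layers, fell with 18.89 FPKM on day 7, 19.57 on day 11 and 4.26 on day 25 (adjusted p = 0.028). The sal1 call ended under quantile (0.18) and upper quartile scaling (0.15) and without 25 DAP (0.51) or 7 DAP (0.065). The calpain gene dek1, needed for aleurone identity, stayed between 2.44 and 7.31 FPKM in endosperm and was not called (adjusted p = 0.76). All 4 were far below nkd1 at 15 DAP, where sal1, the highest, stood at 13.73 FPKM and nkd1 at 108.15.

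Aleurone pigment and aleurone-expressed genes gave little signal. Of 10 matched pigment genes 2 passed the filter of 1 FPKM, and 0 were called by the limma linear test (1 fell at an unadjusted p under 0.05), where 37.4% of all tested genes fell. The glucosyltransferase gene bz1 stood at 13.56 FPKM on day 7 and 0.38 on day 25 (adjusted p = 0.054), and passed the curved test (0.019, but 0.19 without 7 DAP). The chalcone isomerase gene chi1 was at most 2.84 FPKM in endosperm, stood at 48.94 FPKM in the 3 DAP kernel and was not called (adjusted p = 0.13). Among those under the filter, a1 stood at 8.14 FPKM in the 5 DAP kernel, and in endosperm at 2.91 on day 7 and 0.03 on day 15. The bz2 transcript was at most 0.16 FPKM in endosperm. The pigment regulators c1 and r1 were at most 0.26 and 0.01 FPKM in endosperm. Of the aleurone-expressed list, plt1 and plt2, genes for lipid transfer proteins, were matched. The plt1 transcript ranged from 0.81 to 12.61 FPKM in endosperm, was not called (limma adjusted p = 0.53, unadjusted p = 0.44) and stood at 56.68 FPKM in leaf. The 5 matched aleurone markers (c1, r1, vp1, plt1 and plt2) summed to between 2.14 and 16.07 FPKM in endosperm, between 52.48 and 65.68 in the kernels and to 86.76 in leaf. They therefore do not serve as a check of the aleurone share of these libraries.

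Of 5 matched maturation genes 3 were tested, and 1 rose and 0 fell (0 fell at an unadjusted p under 0.05 in the limma fit), where 10.3% of all tested genes rose and 37.4% fell. The globulin gene glb2 rose, with listed 0 on day 7 and 57.17 FPKM on day 25 (slope 0.299 ± 0.035, limma adjusted p = 0.00073). The oleosin gene ole1 was highest at 10 DAP at 121.47 FPKM and was not called (adjusted p = 0.65). The globulin gene glb1 was highest at 11 DAP at 28.95 FPKM and was not called either (0.12). The dehydrin gene rab17, an abscisic acid response gene, was at most 3.24 FPKM in endosperm and stood at 62.13 FPKM in the 3 DAP kernel and 59.04 in leaf. The high glb2 value came from 1 library, on day 25, where both nkd genes were lowest in endosperm, and glb2 stood at 6.03 FPKM on day 20. The highest values of ole1 and glb1 came on days when both nkd genes were high. The list as a whole thus shows no common order relative to nkd1 and nkd2.

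The libraries behind these levels differed in composition. Summed over all listed genes, a library held between 273651 and 300271 FPKM. The 8 starchy endosperm markers summed to 80.63 FPKM on day 7, 351.56 on day 9 and 21909.78 on day 13. Their sum was 17697.2 on day 15, 35543.12 on day 20 and 21901.71 on day 25, so it did not rise at every stage. The 6 matched transfer cell markers summed to 1064.32 FPKM on day 7 and 54.84 on day 25, and the 4 markers of the embryo-surrounding region to 296.57 and 0.4. The 6 matched embryo markers summed to between 29.12 and 144.9 FPKM in endosperm, mostly ole1 and globulins, while among the regulators on that list wox2a ranged from 0.85 to 5.92 FPKM, lec1 was at most 0.46 and the shoot meristem gene kn1 at most 0.19. The leaf marker pep1 (GRMZM2G083841), for the carboxylase of C4 photosynthesis, was at most 0.9 FPKM in endosperm and 932.13 in leaf. Of the other leaf markers, pdk1 (GRMZM2G306345) reached 299.28 FPKM in endosperm, where that dikinase is also known to be expressed. The part of these shifts in the nkd1 and nkd2 profiles was not tested.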

How the data were processed

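The authors deposited 1 table of FPKM values for 34145 genes in 11 libraries, with 2 decimals each. Cutadapt, TopHat2 and edgeR are named, without a role or version, per the submitters' processing notes. Genome build, annotation and counter: not given in the sources used here. Whole reads could not be recovered from the rounded FPKM, so depth is unknown and no counting interval is given. Names of maize genes came from the synonyms in RefSeq's table for the assembly Zm-B73-REFERENCE-NAM-5.0, with 18367 identifiers matched and no coordinate taken from it. Protein and promoter sequences were not used here, so the planned promoter motif search was not run.

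Values were analysed as log2(FPKM + 1). Linear (day) and curved (day and its square) changes over 8 endosperm libraries were fitted with limma 3.58.1 in R 4.3.3 (empirical Bayes with trend). The curved test took day and its square together against no change, so it does not separate a curve from a straight trend. The filter was an average of 1 FPKM over these libraries, which kept 15149 genes. P-values were two-sided and adjusted by the Benjamini-Hochberg method, with calls at an adjusted p under 0.05. The duplicates were compared by exact permutation tests. Single libraries were compared by ratios, without a test. The scripts were tested on simulated data.

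The genes and lists were chosen with earlier results of these data known. Genes named are nkd1 and nkd2, the 8 genes with the most similar profile to each (at most 2 without a name printed) and list members with the 4 highest endosperm means or a test call. Other list genes printed, among them c1, r1, rab17, id1, plt2 and GRMZM2G179677, were chosen after their values were seen. So were 6 homonyms of list symbols, which were removed. Alternatives were other pseudocounts, filters, scalings and libraries left out.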

Additional observations from a re-analysis of the deposited data

How the results depend on the processing

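The higher level of nkd1 than nkd2 kept its direction and call under every alternative run. Because nkd1 was higher in every library, no pseudocount or left-out library could have changed either, so these alternatives do not test that result. The nkd1 curved call (squared term -0.024) ended only without both 20 and 25 DAP (-0.012, adjusted p = 0.18), among the alternatives run. The curved call of nkd2 ended without the filter on mean FPKM (-0.023, adjusted p = 0.062), without 25 DAP (range of its squared term on leaving out 1 library -0.028 to -0.02) and without 9 and 25 DAP (-0.018, adjusted p = 0.13) and without 20 and 25 DAP (-0.02, adjusted p = 0.45). The nkd1 linear slope lost its call without the filter (-0.129), under quantile (-0.095) and upper quartile scaling (-0.099) and on log2 of the day (-1.051), ranged from -0.164 to -0.02 on leaving out 1 library, and was positive over the 10 seed libraries (0.058) and without 20 and 25 DAP (0.134), and was -0.039 without 9 and 25 DAP. The nkd2 slope, not called, was positive in the same settings (0.088 and 0.142), and ranged from -0.111 to 0.038. The correlation of the ratio with day (unadjusted exact permutation p = 0.0807) had an unadjusted exact permutation p of 0.0324 with a pseudocount of 5 (r = -0.751) and 0.0431 without 10 DAP (range of r on leaving out 1 library -0.768 to -0.562). These 2 values were not adjusted over the 3 tests. The nkd2 peak moved to 15 DAP under upper quartile scaling and without the 100 highest genes, and its endosperm-to-leaf log2 ratio was 2.0 with a pseudocount of 0.1 and 2.28 after upper quartile scaling. Among lists, after quantile normalization 1 aleurone fate gene and 1 IDD gene fell and 3 endosperm factors rose (3 after upper quartile scaling). Without 9 and 25 DAP 1 pigment gene fell and 2 IDD genes rose. Over all tested genes the median slope moved to 0.001 with quantile and -0.01 with upper quartile scaling, against -0.034 as deposited. The settings that leave out a pair of libraries, and the ratio with no pseudocount, were chosen after seeing the data. The causes of these changes were not tested. Stages could not be paired by plant or replicate, because each stage has 1 library and the labels give no replicate numbers. Depth is unknown, so how far it limits the low kernel values cannot be said.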
